A study of Mus musculus with 6 samples.

Results

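The semaphorin, ephrin, netrin and Slit guidance genes, ligands and receptors together, were followed in cultured mouse muscle stem cells (MuSCs). Members were the rows of the expression table whose symbol starts with Sema, Plxn, Epha, Ephb, Efna, Efnb, Slit, Robo, Ntn or Unc5, together with Nrp1 and Nrp2, leaving out the Slitrk and Ntng genes. The rule found 62 of 18943 genes, of which 33 code for ligands, 28 for receptors, and 1, Unc50, shares only the letters of its symbol with the netrin receptors. MuSCs of wild-type C57BL/6 mice, 8 weeks old, had been sorted by FACS and kept in culture for 5 days. The DMSO group received the solvent, the ET-3 group received 100 nM Endothelin-3, a peptide ligand of endothelin receptors, and the NT group received 100 nM Neurotensin, a peptide ligand of neurotensin receptors. These doses are those of the sample labels, and the study's methods text states other concentrations. There were 2 libraries per group and 6 in all, while the series' design text speaks of triplicates, and the labels do not say whether they came from separate cultures or animals, so p-values measure only the spread between these samples, which may be technical. Dcc, Slit3 and Robo4 were not analysed here.

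Guidance genes code for secreted or membrane-bound cues and for the receptors that read them, and are best known from growing axons, although vessels, muscle and many other tissues use them. Semaphorins bind plexins, and most class 3 semaphorins, which are secreted, also need a neuropilin as co-receptor. Ephrins stay on the cell surface and bind Eph receptor tyrosine kinases on the neighbouring cell, netrins bind Dcc and Unc5 receptors, and Slits bind Robo receptors. Many of these receptors change adhesion and the actin skeleton.

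A value below is the deposited one, a read count per gene that had been multiplied by 1 factor per library and rounded. Values summed to between 4214458 and 4600575 per library, from 3628952 to 5396233 reads on genes, so that a value of 100 carries a counting error of 8.84% to 10.9%. Fold changes are those of value + 1, which understates the change of low genes, and are given on the log2 scale with the standard error (SE). A gene was counted as changed at a limma adjusted p of at most 0.05 over the 13921 genes whose mean value reached 5, together with a fold change of at least 2. Of the members, 59 passed that minimum, and Ntn3, Robo3 and Unc5d, at values of 0 to 5 in each library, did not. The ET-3 pair and the NT pair each differed by no more than sampling noise (mean chi-square per gene 0.863 and 0.927), while the DMSO pair differed by more (1.48). All 6 libraries entered the fit, and counts are also given for a fit in which the mean of a treated pair stood for 1 sample (pairs averaged).

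With ET-3, 29 of the 59 tested guidance genes changed, 10 upward and 19 downward. Over all tested genes, 21.5% changed (6.62% upward and 14.9% downward), against 49.2% of the members (16.9% and 32.2%). With NT, 29 of 59 changed as well, again 10 upward and 19 downward, where 20.5% of all tested genes did (7.30% upward and 13.2% downward). The median log2 fold change of the members was -0.33 with ET-3 and -0.19 with NT, and -0.01 over all genes in both. At the adjusted p alone, 48 members passed with ET-3, 20 upward and 28 downward (63.7%, 30.6% and 33.2% of all genes), and 47 with NT, 20 and 27 (62.2%, 29.7% and 32.5%). Both comparisons use the same DMSO libraries, and so are not independent of each other. With the pairs averaged, 25 members changed with ET-3 (7 upward, 18 downward) and 23 with NT (6 upward, 17 downward), against 15.3% and 13.8% of all genes. The genes that moved furthest downward were Sema3d and Unc5c, and those that moved furthest upward were Nrp2 and Sema7a.

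Cell type markers moved with the same comparisons. The 10 MuSC and myoblast markers summed to 11629 and 12770 with DMSO and to between 9589 and 11577 in the treated libraries, with Pax7, their defining gene, at 857 and 1070 and then at 1599 to 1754, Calcr, a gene of quiescent MuSCs, at 0 to 3, and 1 of 9 tested, Cdh15, lower. All 9 markers of differentiating muscle were lower with each peptide, summing to 14114 and 15718 with DMSO and 309 to 441 otherwise, and all 4 tested markers of smooth muscle and pericytes were lower too, at 2597 and 3038 against 290 to 431, with Myh11 at 4 or less and Kcnj8 at 2 or less in every library. Endothelial markers summed to 36 and 22 against 98 to 126, 2 of 4 tested higher with ET-3 and 3 with NT, and their defining gene Cdh5 was at 0 to 5. Most of that rise was in Tek, at 2 and 1 with DMSO and 42 to 70 in the treated libraries. Kdr was at 16 and 6 against 23 to 26, Pecam1 at 6 and 3 against 7 to 15, and Egfl7 at 10 and 10 against 10 to 17. Fibroadipogenic markers summed to 57 and 65 against 64 to 90 with none called. Among them, Ly6a was at 27 and 18 against 37 to 52, and Dcn at 9 and 17 against 0 to 2. Macrophage and blood markers summed to 39 and 39 against 51 to 77 with 1 of 3 higher, Cd14, at 4 and 5 against 24 to 34. Cd68 was at 15 and 14 against 16 to 41, Csf1r at 6 and 13 against 4 and 5, and Itgam at 14 and 7 against 0. Schwann and glial markers summed to 44 and 38 against 17 to 38 with 1 of 1 lower with ET-3. The part of these shifts in the guidance gene results was not tested, and in bulk samples fewer cells of a type and less RNA per cell cannot be told apart.

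**Figure D1:**
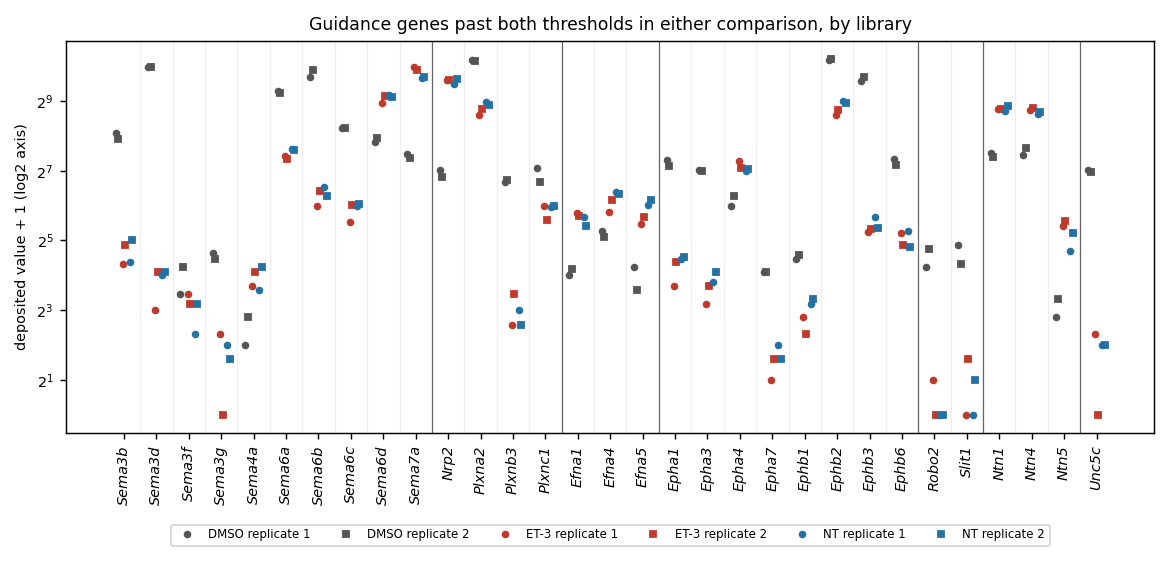
Deposited value + 1 on a log2 axis for the 31 guidance genes that passed both thresholds in either comparison, 1 point per library, coloured by group and shaped by replicate. The ET-3 and NT points of a gene mostly lie together and apart from the grey DMSO points, as for Sema3d (998 and above with DMSO, 16 and below otherwise).

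The direction of the called members varied between families, and the differences between families were not tested. Over all tested genes, 6.62% rose and 14.9% fell past the thresholds with ET-3, and 7.30% rose and 13.2% fell with NT. At those shares, a family of few tested genes can hold none in 1 direction without standing apart. Ephrins and netrins (8 and 3 tested) held no member that fell past the thresholds, with 2 and 3 members higher under ET-3 and 3 and 3 under NT. Slit and Robo genes (4 tested) held none that rose past them, and Eph receptors moved mostly downward, with 7 of 10 lower under each peptide. The minimum mean value bears on these directions. Robo2, Slit1, Epha7, Sema3g and Unc5c were under 5 in every treated library and reached the minimum through DMSO alone. For them only a lower call was open. Sema4a, at 3 and 6 with DMSO, reached it through its treated libraries. Among the guidance ligands tested, 8 of 32 rose and 7 fell with ET-3, and 9 rose and 8 fell with NT. Of the 26 receptors tested, 2 rose and 12 fell with ET-3, and 1 rose and 11 fell with NT.

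Secreted class 3 semaphorins moved only downward where they passed the thresholds, 3 of 7 with ET-3 and 4 of 7 with NT. Over all tested genes, 6.62% rose and 14.9% fell with ET-3, and 7.30% rose and 13.2% fell with NT. With 7 genes, holding none that rose does not set the class apart. Sema3d (chr5:12383385-12588948, mm10, plus strand) was at 1005 and 998 in the DMSO libraries, at 7 and 16 under ET-3 and 15 and 16 under NT. It went from one of the higher class 3 values to near the floor of the table, with log2 fold changes of -6.43 (SE 0.29, limma adjusted p = 5.35e-08) and -5.93 (SE 0.29, adjusted p = 9.92e-08), or 86.0-fold and 60.8-fold lower. Sema3b stood at 272 and 239 in DMSO libraries, 19 and 28 under ET-3 and 20 and 31 under NT, log2 fold changes of -3.41 (SE 0.25, limma adjusted p = 1.39e-06) and -3.30 (SE 0.25, adjusted p = 1.89e-06). The treated libraries of both genes, which were picked by their calls, lay below every DMSO library. Sema3g, a class 3 semaphorin known from vessels, was low throughout, at 24 and 21 in DMSO libraries, 4 and 0 under ET-3 and 3 and 2 under NT. Its log2 fold changes were -3.39 (SE 0.66, limma adjusted p = 0.00128) and -2.76 (SE 0.66, adjusted p = 0.00462). The change with ET-3 ranged from -4.55 without the first ET-3 library to -2.23 without the second, and the call was lost without either DMSO library (adjusted p = 0.065 and 0.0566). Its NT call was lost without the first or second DMSO library or the second NT library (adjusted p = 0.106, 0.0945 and 0.0603). Sema3f stood at 10 and 18 in DMSO libraries, 10 and 8 under ET-3 and 4 and 8 under NT. Its change with NT passed narrowly (log2 fold change -1.11, SE 0.43, limma adjusted p = 0.0451) and was lost under 11 of 15 alternatives (adjusted p from 0.0333 to 0.27), and with ET-3 it was -0.54 (SE 0.43, adjusted p = 0.296).

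Sema3e, the ligand of Plexin-D1, had the highest mean level per length among the class 3 genes, 87.5 per exonic kilobase. It was at 1197 and 1138 in DMSO libraries, 637 and 608 under ET-3 and 652 and 642 under NT. These changes of -0.91 (SE 0.05, limma adjusted p = 1.52e-07) and -0.85 (SE 0.05, adjusted p = 2.56e-07) did not reach 2-fold although the groups did not overlap. Sema3c lay just under the same threshold, at -0.98 with each peptide. Sema3a, the archetype of the family, was at 275 to 345 in all 6 libraries, with log2 fold changes of -0.18 (SE 0.08, limma adjusted p = 0.062) with ET-3 and -0.01 (adjusted p = 0.956) with NT. Summed per exonic kilobase, the class 3 level was 372 and 345 in DMSO libraries, 113 and 110 under ET-3 and 116 and 119 under NT. Sema3d made up 31.4% and 33.7% of that sum in the DMSO libraries and at most 1.70% in the others, and Sema3e went from 34.7% and 35.6% to between 58.1% and 60.7%.

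The membrane-bound class 6 semaphorins were split, with 3 members lower and 1 higher under each peptide. Sema6b was at 825 and 948 in DMSO libraries, 63 and 85 under ET-3 and 91 and 77 under NT, log2 fold changes of -3.58 (SE 0.14, limma adjusted p = 2.29e-08) and -3.39 (SE 0.14, adjusted p = 3.54e-08). Sema6c went from 297 and 300 with DMSO to 45 and 64 under ET-3 and 62 and 65 under NT, changes of -2.45 (SE 0.16, limma adjusted p = 6.36e-07) and -2.22 (SE 0.16, adjusted p = 1.41e-06). Sema6a, a ligand of Plexin-A2 and Plexin-A4, went from 619 and 606 to 170 and 162 under ET-3 and 195 and 194 under NT, changes of -1.88 (SE 0.06, limma adjusted p = 8.18e-09) and -1.65 (SE 0.06, adjusted p = 2.08e-08). All 3 fell more than 2-fold in every treated library. Sema6d, a ligand of Plexin-A1, moved the other way, from 224 and 244 with DMSO to 490 and 566 under ET-3 and 579 and 551 under NT (log2 fold changes 1.17, SE 0.08, limma adjusted p = 6.38e-07, and 1.27, SE 0.08, adjusted p = 3.86e-07). The summed class 6 level per exonic kilobase was 349.7 and 382 with DMSO and 89.2 to 110 in the treated libraries. Sema6b held 59.5% and 62.6% of it with DMSO, whereas Sema6d rose from 6.07% and 6.06% to between 49.7% and 52.0%.

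Sema7a, which codes for a lipid-anchored semaphorin of the cell surface, rose most among the 32 tested ligand genes under both treatments. It lies at chr9:57940112-57962865 (mm10, plus strand) and was at 177 and 163 in DMSO libraries, 1009 and 946 under ET-3 and 810 and 826 under NT. The log2 fold changes were 2.52 (SE 0.06, limma adjusted p = 1.71e-09) and 2.26 (SE 0.06, adjusted p = 2.89e-09), or 5.72-fold and 4.79-fold higher. Its mean level of 199 per exonic kilobase was the highest of the 19 semaphorins. Sema4a, a transmembrane semaphorin, was the only class 4 member past both thresholds, at 3 and 6 in DMSO libraries, 12 and 16 under ET-3 and 11 and 18 under NT. Its changes of 1.49 (SE 0.41, limma adjusted p = 0.00936) and 1.51 (SE 0.41, adjusted p = 0.00894) rest on few reads, and both calls were lost with the treated pairs averaged (adjusted p = 0.144 and 0.141) and without the first DMSO library (adjusted p = 0.0877 and 0.0846). The ET-3 call was also lost without the second ET-3 library (adjusted p = 0.0763), and the NT call without the second NT library (adjusted p = 0.0947).

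Other class 4 members passed the adjusted p alone, in opposite directions. Sema4d, the ligand of Plexin-B1, was at 395 and 432 in DMSO libraries, 216 and 223 under ET-3 and 209 and 215 under NT, changes of -0.91 and -0.96 (SE 0.07, limma adjusted p = 2.02e-06 and 1.51e-06). Sema4c, a ligand of Plexin-B2, was at 264 and 273 in DMSO libraries, 405 and 437 under ET-3 and 403 and 457 under NT, changes of 0.65 and 0.67 (SE 0.07, adjusted p = 3.00e-05 and 2.33e-05). Sema4b, Sema4f, Sema4g and Sema5a did not pass with either peptide, with log2 fold changes between -0.32 and 0.95. The summed class 4 level per exonic kilobase was 159 and 171 with DMSO and 166 to 189 in the treated libraries, so that those ranges overlapped.

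**Figure D2:**
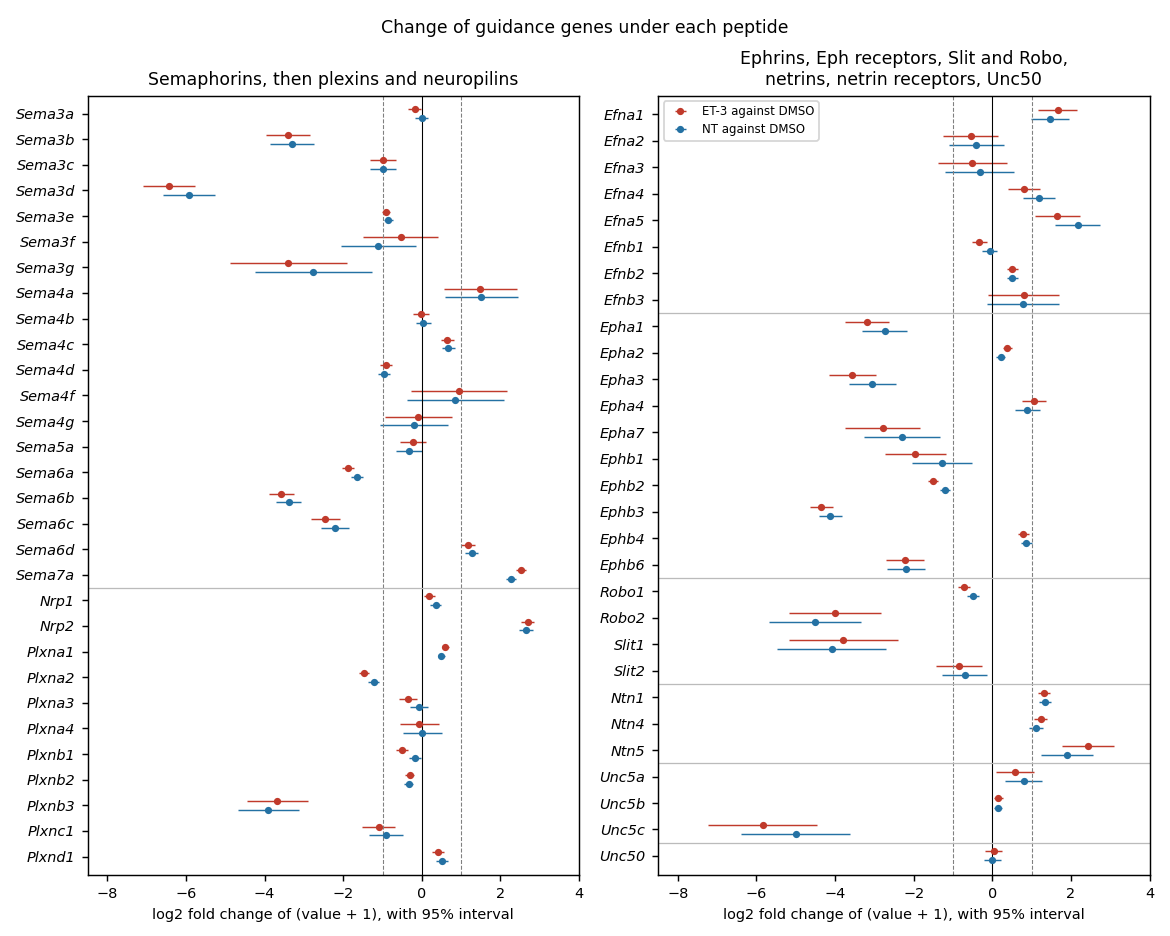
Log2 fold change of value + 1 (points) with its 95% interval (lines) for the 59 tested members, ET-3 in red and NT in blue, with dashed lines at 2-fold. The Eph receptors lie mostly left of the lower dashed line, the netrins lie to the right of the upper one, and for most genes the red and blue intervals overlap.

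Of the 11 semaphorin receptors, 1 rose and 3 fell with ET-3, and 1 rose and 2 fell with NT. Of all tested genes, 6.62% rose and 14.9% fell with ET-3, and 7.30% rose and 13.2% fell with NT. With 11 genes, the counts are too small to set the family apart from those shares. Nrp2 (chr1:62703285-62818695, mm10, plus strand), the neuropilin that binds Sema3f among others, was at 129 and 112 in DMSO libraries, 778 and 783 under ET-3 and 721 and 801 under NT. This was 6.45-fold and 6.28-fold higher (log2 fold changes 2.69, SE 0.08, limma adjusted p = 2.97e-09, and 2.65, SE 0.08, adjusted p = 4.06e-09). Nrp1, the neuropilin that binds Sema3a, was at 379 and 341 in DMSO libraries, 404 and 419 under ET-3 and 443 and 473 under NT, changes of 0.19 (SE 0.07, limma adjusted p = 0.0268) and 0.35 (SE 0.07, adjusted p = 0.00117). In DMSO libraries Nrp2 made up 21.9% and 21.4% of the summed neuropilin level per exonic kilobase, and in the treated libraries between 57.4% and 61.4%.

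The summed level of the 9 plexins per exonic kilobase lay between 703 and 728 in all 6 libraries, while single members moved. Plxna1 had the highest mean level, 289 per exonic kilobase, and was at 1988 and 2023 in DMSO libraries, 3001 and 3037 under ET-3 and 2864 and 2787 under NT. Its changes of 0.59 (SE 0.04, limma adjusted p = 8.07e-07) and 0.49 (SE 0.04, adjusted p = 3.01e-06) stayed under 2-fold, and 10.7% of its exonic bases are shared with an overlapping gene, Gm26811. Plxna2 fell, from 1160 and 1138 with DMSO to 391 and 435 under ET-3 and 504 and 477 under NT (log2 fold changes -1.48, SE 0.06, limma adjusted p = 2.43e-08, and -1.23, SE 0.06, adjusted p = 9.14e-08). Plxnb3, which binds Sema5a, fell from 101 and 105 to 5 and 10 under ET-3 and 7 and 5 under NT, changes of -3.68 (SE 0.35, limma adjusted p = 8.52e-06) and -3.91 (SE 0.35, adjusted p = 5.90e-06). Plxnc1, the receptor of Sema7a, was at 135 and 101 in DMSO libraries, 62 and 47 under ET-3 and 61 and 62 under NT. It passed both thresholds with ET-3 (log2 fold change -1.10, SE 0.19, limma adjusted p = 0.000564), and with NT stayed under 2-fold (-0.91, SE 0.19, adjusted p = 0.00192). The ET-3 call was lost with the treated pair averaged (adjusted p = 0.0924), and the change was under 2-fold without the first DMSO library (-0.89) or the second ET-3 library (-0.90).

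The remaining plexins changed by less than 2-fold. Plxnb1, the Sema4d receptor, was at 358 and 377 in DMSO libraries, 259 and 260 under ET-3 and 311 and 340 under NT, changes of -0.50 (SE 0.07, limma adjusted p = 9.90e-05) and -0.18 (SE 0.07, adjusted p = 0.0424). Plxnd1, the Sema3e receptor, was at 583 and 652 in DMSO libraries, 784 and 855 under ET-3 and 894 and 867 under NT, changes of 0.41 (SE 0.06, adjusted p = 0.00029) and 0.51 (SE 0.06, adjusted p = 6.18e-05). Plxnb2 and Plxna3 lay between -0.35 and -0.07 with either peptide, and Plxna4, at 37 to 50 in all libraries, passed no threshold.

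Ephrins of the A type, held in the membrane by a lipid anchor, rose in part. Efna1 was at 15 and 17 in DMSO libraries, 54 and 51 under ET-3 and 50 and 42 under NT, log2 fold changes of 1.66 (SE 0.22, limma adjusted p = 8.65e-05) and 1.46 (SE 0.22, adjusted p = 0.000214). Efna5 stood at 18 and 11 in DMSO libraries, 43 and 50 under ET-3 and 64 and 70 under NT, changes of 1.65 (SE 0.26, limma adjusted p = 0.00029) and 2.17 (SE 0.26, adjusted p = 4.51e-05). Efna4, the ephrin-A with the highest mean level per length (37.5 per exonic kilobase), was at 38 and 33 in DMSO libraries, 55 and 71 under ET-3 and 83 and 80 under NT. It passed both thresholds with NT (1.18, SE 0.19, limma adjusted p = 0.000321) and stayed under 2-fold with ET-3 (0.80, SE 0.19, adjusted p = 0.0035). With each treated pair averaged, Efna5 lost its call with both peptides (adjusted p = 0.0971 and 0.0734) and Efna4 its call with NT (adjusted p = 0.0514). Summed over the 5 ephrin-A genes, the level per exonic kilobase was 52.3 and 50.9 in DMSO libraries, 83.7 and 98.8 under ET-3 and 110 and 101 under NT.

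Ephrin-B ligands, which span the membrane, moved less. Efnb2, the partner of EphB4 in vessel formation, had the highest mean level of all ephrins (115 per exonic kilobase) and was at 592 and 643 in DMSO libraries, 889 and 868 under ET-3 and 924 and 831 under NT. Both changes were 0.51 (SE 0.06, limma adjusted p = 4.93e-05 and 5.46e-05). Efnb1 passed the adjusted p with ET-3 alone, at -0.33 (SE 0.09, adjusted p = 0.00739) against -0.07 (adjusted p = 0.489) with NT, and Efnb3, Efna2 and Efna3, at values of 5 to 31, passed with neither.

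EphB receptors fell together apart from Ephb4. Ephb3 (chr16:21204755-21223305, mm10, plus strand) was at 759 and 832 in DMSO libraries, 37 and 39 under ET-3 and 50 and 40 under NT. This was 20.4-fold and 17.4-fold lower (log2 fold changes -4.35, SE 0.13, limma adjusted p = 4.19e-09, and -4.12, SE 0.13, adjusted p = 6.57e-09). Ephb2 went from 1147 and 1192 to 391 and 426 under ET-3 and 516 and 489 under NT, changes of -1.52 (SE 0.06, limma adjusted p = 1.46e-08) and -1.22 (SE 0.06, adjusted p = 7.06e-08). Ephb6, which lacks an active kinase, went from 161 and 142 to 36 and 28 under ET-3 and 38 and 27 under NT, changes of -2.22 (SE 0.22, limma adjusted p = 1.04e-05) and -2.20 (SE 0.22, adjusted p = 1.15e-05). Every treated library lay below every DMSO library for these genes, which were picked by their calls. Ephb1, a lower gene at 21 and 23 in DMSO libraries, 6 and 4 under ET-3 and 8 and 9 under NT, also passed (log2 fold changes -1.96, SE 0.34, limma adjusted p = 0.000625, and -1.28, SE 0.34, adjusted p = 0.00843), the NT call being lost with the pair averaged (adjusted p = 0.0508). Ephb4 had values of 267 and 261 in DMSO libraries, 447 and 464 under ET-3 and 465 and 499 under NT, changes of 0.78 (SE 0.06, limma adjusted p = 1.69e-06) and 0.87 (SE 0.06, adjusted p = 9.04e-07), and was the only EphB receptor above DMSO. It made up 18.7% and 17.7% of the summed EphB level per exonic kilobase with DMSO and 62.7% to 67.7% in the treated libraries, as that sum went from 309 and 317 to between 143 and 161.

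EphA receptors showed the same mixture around 1 abundant member. Epha2 held 78.5% and 77.8% of the summed EphA level per exonic kilobase with DMSO and 91.6% to 92.7% with a peptide, at values of 1103 and 1007 in DMSO libraries, 1382 and 1347 under ET-3 and 1228 and 1214 under NT. Its changes were small, 0.37 (SE 0.05, limma adjusted p = 0.00011) and 0.21 (SE 0.05, adjusted p = 0.00436). Epha3, a receptor of ephrin-A5, went from 128 and 126 to 8 and 12 under ET-3 and 13 and 16 under NT, log2 fold changes of -3.56 (SE 0.27, limma adjusted p = 1.52e-06) and -3.05 (SE 0.27, adjusted p = 4.93e-06). Epha1 went from 159 and 141 to 12 and 20 under ET-3 and 21 and 22 under NT, changes of -3.19 (SE 0.26, limma adjusted p = 2.55e-06) and -2.74 (SE 0.26, adjusted p = 7.89e-06), and shares 6.01% of its exonic bases with Zyx. Epha7 stood at 16 and 16 in DMSO libraries, 1 and 2 under ET-3 and 3 and 2 under NT, log2 fold changes of -2.79 (SE 0.43, limma adjusted p = 0.000268) and -2.29 (SE 0.43, adjusted p = 0.00103), which shrank to -1.70 and -1.49 with a pseudocount of 5. Epha4, which binds ephrins of both types, was at 62 and 77 in DMSO libraries, 155 and 134 under ET-3 and 127 and 131 under NT. It was the only Eph receptor called higher, with ET-3 (1.05, SE 0.14, limma adjusted p = 8.66e-05), and its change with NT was 0.89 (SE 0.14, adjusted p = 0.000285). That ET-3 call was lost with the pair averaged (adjusted p = 0.0692), and the change was 0.90 without the first DMSO library and 0.95 without the first ET-3 library.

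**Figure D3:**
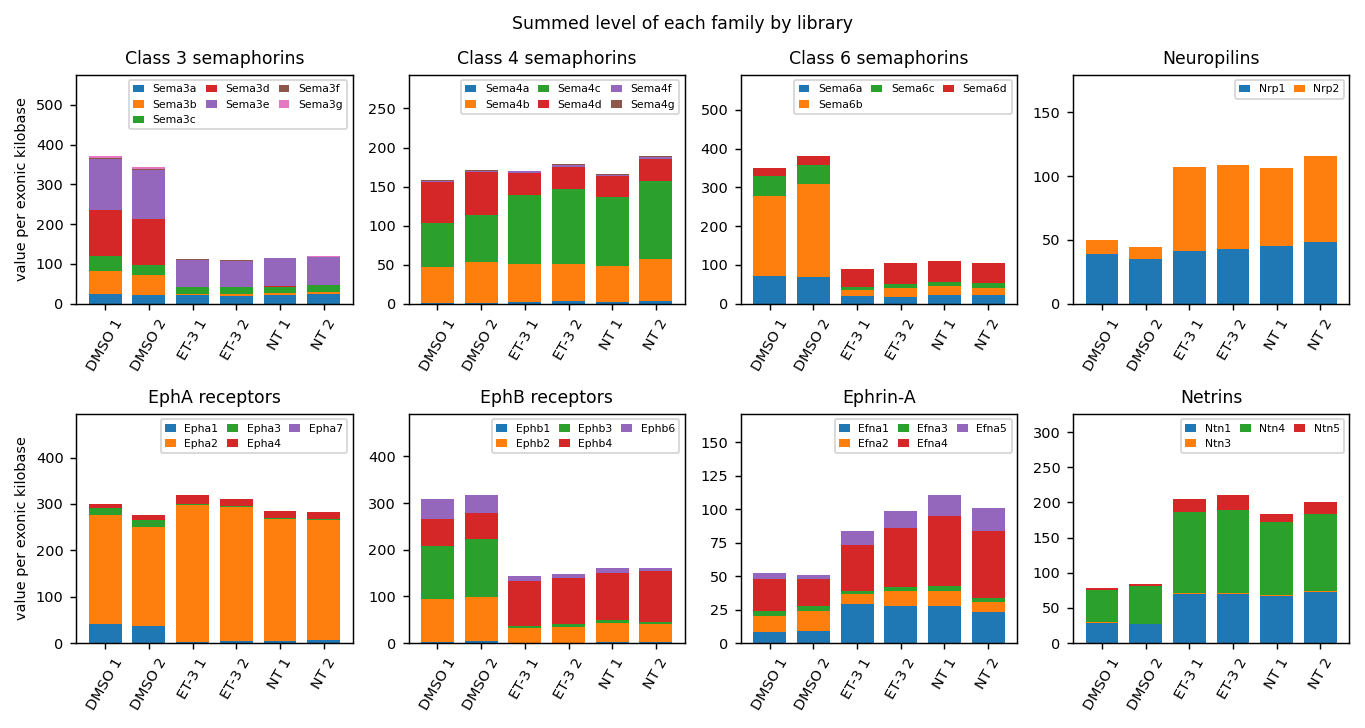
Summed value per exonic kilobase in each of the 6 libraries for 8 families, stacked by member. Class 3 and class 6 semaphorins and EphB receptors stand lower in the 4 treated libraries, neuropilins, ephrin-A ligands and netrins stand higher, and the leading member changes from Ephb3 to Ephb4 and from Sema6b to Sema6d.

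Both Slit genes and both tested Robo receptors passed the adjusted p in the downward direction. Robo3, at 0 and 1 with DMSO, 5 and 3 under ET-3 and 3 and 2 under NT, was too low to be tested. Robo1, the most abundant at 46.7 per exonic kilobase, was at 953 and 1042 in DMSO libraries, 567 and 647 under ET-3 and 721 and 697 under NT, changes of -0.72 (SE 0.07, limma adjusted p = 8.88e-06) and -0.49 (SE 0.07, adjusted p = 0.000137). Robo2 was at 18 and 26 in DMSO libraries, 1 and 0 under ET-3 and 0 and 0 under NT. Against 3 reads over the NT group, the number that a count of 0 allows, Robo2 was at least 17.9-fold lower with NT. Its fitted changes, which depend on the pseudocount, were -4.00 with ET-3 (SE 0.52, limma adjusted p = 8.41e-05) and -4.50 with NT (SE 0.52, adjusted p = 3.85e-05), and -2.29 and -2.42 with a pseudocount of 5. Slit1 was at 28 and 19 in DMSO libraries, 0 and 2 under ET-3 and 0 and 1 under NT, changes of -3.80 (SE 0.62, limma adjusted p = 0.000385) and -4.09 (SE 0.62, adjusted p = 0.000246). With a pseudocount of 5 the changes of Slit1 were -2.25 and -2.36, and that with ET-3 was -3.01 without the first ET-3 library and -4.59 without the second. Slit2 had a higher mean value than Slit1 (31.5 against 8.33), but not a higher mean level per exonic kilobase (1.24 against 1.41). Slit2 was at 50 and 38 in DMSO libraries, 27 and 21 under ET-3 and 30 and 23 under NT, less than 2-fold lower (-0.85, SE 0.26, limma adjusted p = 0.0162, and -0.71, SE 0.26, adjusted p = 0.0367).

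All 3 netrins tested rose with each peptide. Ntn1, the archetype of the family, was at 183 and 168 in DMSO libraries, 438 and 440 under ET-3 and 423 and 460 under NT, log2 fold changes of 1.32 (SE 0.07, limma adjusted p = 1.31e-07) and 1.33 (SE 0.07, adjusted p = 1.39e-07). Ntn4, which also binds laminins of the basement membrane, had the highest mean level of the netrins (91.4 per exonic kilobase) and was at 174 and 199 in DMSO libraries, 431 and 444 under ET-3 and 392 and 412 under NT. It rose by 1.23 (SE 0.07, limma adjusted p = 3.67e-07) and 1.11 (SE 0.07, adjusted p = 8.11e-07). Ntn5 was at 6 and 9 in DMSO libraries, 42 and 46 under ET-3 and 25 and 36 under NT, changes of 2.43 (SE 0.30, limma adjusted p = 5.48e-05) and 1.89 (SE 0.30, adjusted p = 0.000327). Ntn5 shares 23.4% of its exonic bases with Sec1, and the authors' counting left out reads on several genes. Its NT call was lost with the pair averaged (adjusted p = 0.0671). The summed netrin level per exonic kilobase was 78.6 and 84.6 with DMSO and 184 to 210 in the treated libraries.

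Netrin receptors of the Unc5 family went different ways. Unc5b held 93.2% to 95.4% of the family's summed level per exonic kilobase in all 6 libraries, at 1161 and 1170 in DMSO libraries, 1313 and 1277 under ET-3 and 1332 and 1234 under NT (log2 fold changes 0.15, SE 0.05, limma adjusted p = 0.0181, and 0.14, SE 0.05, adjusted p = 0.0293). Unc5c (chr3:141465216-141834924, mm10, plus strand) went from 129 and 125 with DMSO to 4 and 0 under ET-3 and 3 and 3 under NT. The log2 fold changes were -5.84 (SE 0.62, limma adjusted p = 1.91e-05) and -5.00 (SE 0.62, adjusted p = 6.05e-05), and that with ET-3 was -7.00 without the first ET-3 library, -4.68 without the second and -4.30 with a pseudocount of 5. Unc5a stood at 26 and 30 in DMSO libraries, 41 and 43 under ET-3 and 44 and 55 under NT and changed by 0.57 (SE 0.21, limma adjusted p = 0.0371) and 0.80 (SE 0.21, adjusted p = 0.00802). Unc50, which codes for a Golgi protein and no guidance receptor, was at 154 to 171 in every library and did not pass (log2 fold changes 0.03 and -0.00, limma adjusted p = 0.785 and 0.976).

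Known ligand and receptor pairs, listed after their values were seen, went partly in opposite directions. Sema7a was higher and its receptor Plxnc1 lower with each peptide, as were Efna5 and Epha3. Sema3e was lower and Plxnd1 higher, and Sema4c higher and Plxnb2 lower, all by less than 2-fold. Nrp2 rose while Sema3f passed in the downward direction with NT only, and Plxnb3 fell while Sema5a passed with neither peptide. Other pairs went in 1 direction, downward for Sema6a with Plxna2, Sema4d with Plxnb1, and Slit1 with Robo2, and upward for Sema6d with Plxna1 and Efnb2 with Ephb4. Of these, Sema4d, Plxnb1, Plxna1, Efnb2 and Ephb4 moved by less than 2-fold. Receptors outside the pairs named could go otherwise. Plxna4, also a receptor of Sema6a, passed no threshold. Epha4, which binds ephrins of both types, was higher with each peptide, while the EphB receptors other than Ephb4 fell. Ntn1 rose while Unc5a and Unc5b were higher by less than 2-fold and Unc5c fell.

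Promoter sequence is shown for Sema3d, which moved furthest down, and for Nrp2 and Sema7a, which moved furthest up, because members of several families moved in parallel. RefSeq (GRCm38.p6) windows of the 250 bases before a listed start were matched for 52 of the 61 members other than Unc50. In the stretches of Sema3d, Nrp2 and Sema7a, only bases before the annotated gene start are printed, 5′ to 3′. CAGCTG, a form of the E-box that muscle regulatory factors can bind, is in capitals. The stretches lie at chr5:12382916-12383165 for Sema3d, chr1:62703067-62703284 for Nrp2 and chr9:57939862-57940111 for Sema7a, all on the plus strand, and the Sema3d stretch ends 219 bases before the annotated gene start.
Sema3d: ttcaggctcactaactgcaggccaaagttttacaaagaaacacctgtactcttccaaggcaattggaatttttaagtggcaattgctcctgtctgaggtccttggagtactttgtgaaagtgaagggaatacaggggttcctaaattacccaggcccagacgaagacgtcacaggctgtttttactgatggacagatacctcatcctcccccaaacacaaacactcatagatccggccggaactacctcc
Nrp2: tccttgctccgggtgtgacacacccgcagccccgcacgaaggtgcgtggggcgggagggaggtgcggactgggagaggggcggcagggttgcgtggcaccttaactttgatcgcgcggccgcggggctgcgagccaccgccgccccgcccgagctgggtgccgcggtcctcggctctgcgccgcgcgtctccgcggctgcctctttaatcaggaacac
Sema7a: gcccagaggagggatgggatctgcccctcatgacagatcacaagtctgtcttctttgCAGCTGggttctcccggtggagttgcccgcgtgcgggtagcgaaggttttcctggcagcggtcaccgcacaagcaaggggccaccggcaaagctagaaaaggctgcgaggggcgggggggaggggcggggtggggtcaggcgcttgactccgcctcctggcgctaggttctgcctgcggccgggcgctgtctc
Of these 3, Sema7a alone held the hexamer, and GC content was 46.8% for Sema3d, 72.5% for Nrp2 and 66.4% for Sema7a. Over 27025 genes with a window, 14.7% held CAGCTG (the same letters on both strands), against 9 of 52 members, 5 of the 15 lower with both peptides and 2 of the 8 higher with both. The first 2 sites below belong to genes that rose and the others to genes that fell, each in 30 bases.
Ntn5: tggtttcccctaCAGCTGatctgaggctgg
Sema7a: ctgtcttctttgCAGCTGggttctcccggt
Ephb3: tcgcagcagaacCAGCTGgctgggcggtct
Plxnb3: tgacaaagctgcCAGCTGtggtggagcccg
Robo2: tccagcccccagCAGCTGctggaggaggcg
Sema3g: ctgtccacacctCAGCTGggtcagagtctc
Sema6c: gacagacagtgaCAGCTGgctgggagtgag
In order, these sites lie at chr7:45683950-45683979, chr9:57939907-57939936, chr16:21204646-21204675, chrX:73756939-73756968, chr16:74411845-74411874 (minus strand), chr14:31217651-31217680 and chr3:95164186-95164215, from 37 to 210 bases before the listed start, which for Ephb3, Plxnb3, Sema3g and Sema6c lies inside the annotated gene. The Sema6c site itself also lies inside its gene (chr3:95160457-95174024), while the other sites lie before the annotated gene start. Searched on both strands, TGANTCA, the site of AP-1, was in 7.82% of all windows and 3 of 52 members, GGAATG, the site of TEAD factors, in 14.4% and 8 of 52, and the MEF2 site in 3.42% and 1 of 52. A match describes the letters of a window and not the binding of a factor.

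The peptides were then compared directly, since a call in 1 comparison and not in the other does not show a difference. In NT against ET-3, 0 of the 59 members passed both limma thresholds, where 0.0790% of all tested genes did (0.0503% upward and 0.0287% downward). An unadjusted limma p under 0.05 was found for 12 of the 59 members and 2765 of the 13921 tested genes, which are similar shares. At the adjusted p alone, 2 members (3.39%) passed, both higher with NT, near the 2.69% of all genes (0.647% higher and 2.05% lower). Ephb2 was higher with NT than with ET-3 by 0.30 (SE 0.06, limma adjusted p = 0.0383), and Plxnb1 by 0.32 (SE 0.07, adjusted p = 0.0424). Both had fallen less with NT than with ET-3. Neither Ephb2 nor Plxnb1 passed with any 1 of the 6 libraries left out (adjusted p from 0.16 to 0.459), with the replicate block (0.0702 and 0.0718) or without the filter on low values (0.157). The differences of the members ranged from -0.57 to 0.84, and 52 of 59 lay within 0.5 on either side of 0. For 44 members the 95% interval of the difference lay within 2-fold, and for the other 15 it reached beyond, so that it holds a 2-fold difference between the peptides. For Sema3d the difference was 0.50 (interval -0.16 to 1.16) and for Unc5c 0.84 (-0.55 to 2.22), while for Nrp2 it was -0.04 and for Sema7a -0.26 (limma adjusted p = 0.0533). Of the members called with 1 peptide only, Epha4 differed by -0.16, Plxnc1 by 0.18, Efna4 by 0.38 and Sema3f by -0.57, with limma adjusted p of 0.575, 0.642, 0.294 and 0.511.

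**Figure D4:**
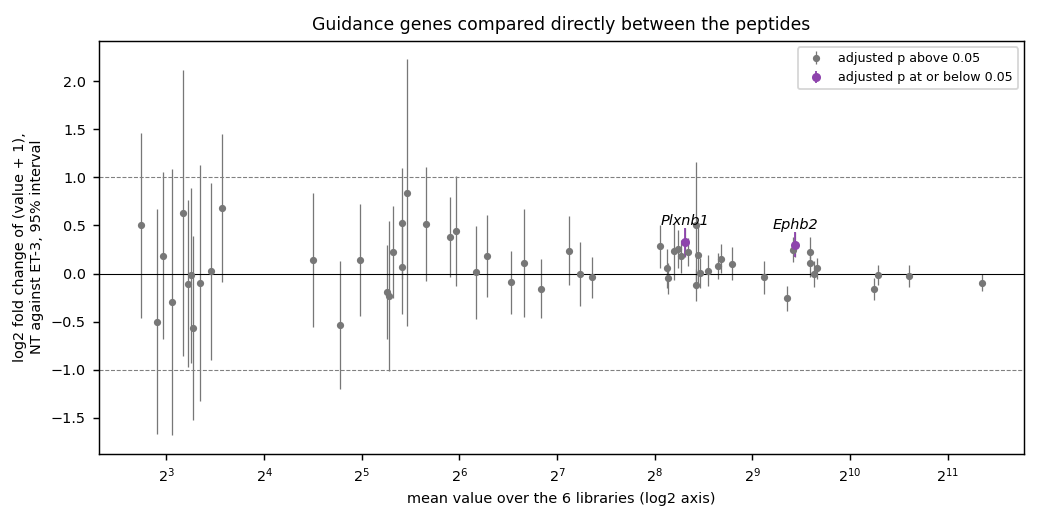
Log2 fold change of NT against ET-3 (points, with 95% intervals) for the 59 tested members, plotted by mean value over the 6 libraries on a log2 axis, dashed lines at 2-fold. The purple points are Ephb2 and Plxnb1, and the intervals that cross a dashed line belong mostly to low-valued genes.

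Of 99 partners and effectors of guidance receptors, 93 were in the table and 90 were tested. With ET-3, 5 rose and 18 fell, and with NT 6 rose and 15 fell, with a median log2 fold change of -0.17 in each. These were 25.6% and 23.3% of the partners tested, near the 21.5% and 20.5% of all tested genes. Actin and microtubule effectors held 0 higher and 5 lower of 14 tested with each peptide. Kinases and adaptors held 1 higher and 2 lower of 22 with each peptide (13.6%, below the share of all genes), other cues 0 higher and 1 lower of 3, and neither sheddase changed. Co-receptors held 2 higher and 4 lower of 17 with ET-3, against 3 higher and 2 lower with NT. These groups are small, and their counts are given as a description. The genes named here were chosen after their values were seen. Ablim3, an actin-binding protein, went from 865 and 895 with DMSO to 7 and 5 under ET-3 and 3 and 14 under NT, and Enah, which extends actin filaments, from 2211 and 2208 to 761 and 755 under ET-3 and 820 and 818 under NT. Fyn, a kinase downstream of semaphorin receptors, went from 1277 and 1239 to 477 and 487 under ET-3 and 495 and 478 under NT. Among those that rose, Met, a receptor kinase that associates with plexin-B proteins, went from 917 and 817 to 2234 and 2171 under ET-3 and 2080 and 2017 under NT. Nrcam, an adhesion molecule that binds neuropilin-2, went from 44 and 38 to 353 and 291 under ET-3 and 283 and 301 under NT.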

How the data were processed

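RNA of cultured MuSCs was sequenced from 6 libraries, 2 per group. Per the labels, 4 ng of RNA entered a SMART-Seq HT kit, which does not mark strand. The submitters' processing notes name Trimmomatic 0.38, STAR 2.7.7a, featureCounts 1.6.5, DESeq2 1.30.0, FastQC and mm10, while the paper's methods describe a stranded kit, Reaper, STAR and featureCounts on exons, with reads on several genes or regions left out. The table the authors deposited holds a read signal per gene, whole numbers that are counts multiplied by 1 factor per library (0.781 to 1.19, fitted here) and rounded. How that scaling was made is not given in the sources used here. The values were therefore not treated as raw counts.

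Values were tested as log2(value + 1) with limma 3.58.1 (R 4.3.3), with a trend of the variance with level, over all 6 libraries and the 13921 genes whose mean value reached 5, and Benjamini-Hochberg adjustment over all of them. Groups came from the labels. Levels between genes are compared per exonic kilobase with lengths and positions from GENCODE (GRCm38), and promoters are from RefSeq. Members, families, partner genes and markers were chosen with earlier results of these data known. Values in every library are given for members that passed both thresholds against DMSO, members that passed the adjusted p between the peptides, and the most abundant member of each family per length. The fit was tested on simulated data in which fewer genes changed than here, all by well over 2-fold. That simulation does not bear on calls near the thresholds. Alternatives covered the filter, pseudocount, scaling, weights, replicate block, groups in the fit, averaged treated pairs, a trend with level and each library left out. Same-numbered libraries did not deviate together, but treated pairs that differ by no more than sampling noise could not show a shared origin. The counts of 1 group of partner genes are not reported here.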

Additional observations from a re-analysis of the deposited data

Results flagged for a closer look

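Ephb2 and Plxnb1 passed the limma adjusted p in a test of the difference between the peptides itself. They were 3.39% of the members tested, near the 2.69% of all tested genes that passed. Ephb2 was at 391 and 426 with ET-3 and at 516 and 489 with NT, a log2 difference of 0.30 (SE 0.06, limma adjusted p = 0.0383), with 2 of 2 NT libraries above both ET-3 libraries. Plxnb1 was at 259 and 260 with ET-3 and at 311 and 340 with NT, a log2 difference of 0.32 (SE 0.07, limma adjusted p = 0.0424), again higher in 2 of 2. Both genes were picked by this same test, so the order of their libraries adds no support. Both lay under 2-fold, and both lost the adjusted p without any single library of the 6 (0.16 to 0.459). Groups of 2 libraries are too small to test for a library that stands apart.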

How the results depend on the processing

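Without the 2-fold threshold, 48 members passed with ET-3, 47 with NT and 2 between the peptides. Over all other alternatives the count of changed members ranged from 23 to 31 with ET-3 and from 22 to 30 with NT, and was 0 between the peptides, where averaging the treated pairs was not run. The low ends, 23 and 22, came with a minimum mean value of 20, where only 48 members were tested. With each library left out in turn it was 25 to 31 with ET-3 and 27 to 30 with NT. The replicate block left 29 with ET-3, 29 with NT and 0 between the peptides, and changed no member's call against DMSO. Same-numbered libraries showed correlations of deviations of -0.008, -0.070 and -0.022. Because the ET-3 and NT pairs differed by no more than sampling noise, these correlations could not show a shared culture or animal.

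No change that passed the adjusted p reversed its direction under any alternative, while 11 changes of 7 genes that did not pass (adjusted p of 0.489 or more) changed sign. Scaled to the library total, the log2 fold change with NT was 0.0395 for Efnb1, 0.0447 for Plxna3, 0.107 for Sema3a and 0.109 for Unc50, and that with ET-3 was 0.0223 for Plxna4 and 0.0738 for Sema4b. Scaled to the upper quartile, it was 0.0257 for Sema3a and 0.0272 for Unc50 with NT and 0.0341 for Sema4b with ET-3. With each library left out in turn, it ranged with NT from -0.154 to 0.0076 for Efnb1, -0.189 to 0.0531 for Plxna3, -0.206 to 0.219 for Plxna4, -0.108 to 0.0975 for Sema3a, -0.0685 to 0.148 for Sema4b, -0.455 to 0.076 for Sema4g and -0.0789 to 0.0713 for Unc50, and with ET-3 from -0.196 to 0.0667 for Plxna4, -0.111 to 0.0809 for Sema4b, -0.435 to 0.265 for Sema4g and -0.0428 to 0.107 for Unc50. Scaled to the library total, the median of all genes shifted to 0.08 with ET-3 and 0.10 with NT, and that of the members to -0.24 and -0.09. Scaled to the upper quartile, the members' medians were -0.28 and -0.16. For Ephb2 and Plxnb1 between the peptides, the adjusted p was 0.157 without the filter on low values, 0.0702 and 0.0718 with the replicate block, 0.158 in a fit of those groups alone, and 0.0574 and 0.0708 with the trend of the difference with level removed, and for Plxnb1 0.0504 with a pseudocount of 0.5, and the cause was not tested. Depth limits the genes with values under about 20, where counting error is large, and their fold changes depend on the pseudocount.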
